A study of Mus musculus with 38 samples.

Results

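The genes described here encode histone variants that can be made without DNA replication. They were taken by name: H3f3a and H3f3b for histone H3.3, H2afz and H2afv for H2A.Z, H2afx for H2A.X, H2afy for macroH2A1 and H1f0 for the linker histone H1.0. All 7 were found, each once, among the 22401 genes of the count tables. For each gene, ribosome footprints (short stretches of mRNA shielded from nuclease by the ribosome) were taken in the coding sequence (CDS) of its longest transcript. They were scaled to a CDS total of 1000000 in each library (CPM), and the pulldown was set against the input with the same replicate number.

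Most histone genes are transcribed while DNA is copied, have no introns and give mRNAs without a poly(A) tail. The replication-independent variants are mostly made from polyadenylated mRNAs at any time, so they are a main source of new histones in cells that no longer divide, such as neurons. H2afx, a gene without introns, gives both a polyadenylated mRNA and one of the replication-dependent type without a poly(A) tail. H3.3 is placed into transcribed chromatin by HIRA and into telomeres and other repeats by ATRX and DAXX, H2A.Z is exchanged at promoters by SRCAP and EP400, H2A.X is phosphorylated around DNA breaks, macroH2A carries a large non-histone domain and is enriched in silent chromatin, and H1.0 binds linker DNA and gathers in differentiated cells.

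The footprints came from PL-Ribo-seq of primary cortical neurons prepared from CD-1 mouse embryos, which joins ribosome profiling with proximity labelling. All cultures carried a doxycycline-inducible lentivirus for a biotin ligase, either TurboID-PSD95, which reaches dendrites through elements of the scaffold protein PSD95, or Pan-TurboID without such elements, and all received cycloheximide for 2 min and biotin, for 30 min per the labels, although the study's methods give a shorter time after DHPG. Streptavidin gave a pulldown library, made of footprints in biotinylated complexes, beside an input library of the same lysate. The 14 groups, of which 10 held 3 libraries and 4 held 2, were the input and pulldown of 7 conditions. Resting and depolarized neurons were studied with each bait. Depolarization meant silencing for 2 h with tetrodotoxin and DL-AP5 and then 55 mM KCl for 1 h. Per the study's methods, fresh medium with the same silencers and biotin followed for 30 min. The labels give no silencing for resting neurons, so silencing and KCl cannot be told apart in any comparison of depolarized with resting neurons. TurboID-PSD95 neurons were also silenced for 2 h with the same drugs and given 100 µM of DHPG for 10 min. DHPG activates metabotropic glutamate receptors of group I. Resting and depolarized TurboID-PSD95 neurons were treated with 20 nM siRNA against the translation factor eIF4G2 for 72 h, with 2 libraries a group. Resting cultures of the DHPG experiment and cultures with a control siRNA were not analysed here, and the KCl experiment gave the groups without these treatments, so experiment and treatment cannot be told apart in those comparisons. For the DHPG inputs and the knockdown libraries the labels conflict, since their descriptions speak of the cytosol, as those of Pan-TurboID libraries do, but the virus named is that of TurboID-PSD95. The virus was followed here. Several dishes were pooled per sample, the cultures were not sorted, and replicates are biological ones according to the study, although the labels do not name the preparation of each.

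The 38 libraries held 5906281 to 35643247 footprints, of which 2048604 to 14646402 lay in the CDSs used. In replicate 1 of the depolarized groups without siRNA, 2057107 to 3183629 of 9475681 to 21160971 footprints lay there. The lowest Pearson r between replicates was 0.801, for replicates 1 and 2 of the depolarized TurboID-PSD95 pulldowns. Summed over a list of 8 neuron markers, the level was 4906 to 10470 CPM in all libraries. It was 97.3 to 1054 over 7 astrocyte markers, 30.7 to 545 over 7 markers of the oligodendrocyte lineage, 0 to 24.8 over 7 microglia markers and 87.8 to 822 over 8 genes of dividing cells. Eif4g2 had 284 to 337 CPM in the knockdown inputs against 456 to 811 in the inputs of the KCl experiment. Of 16 immediate early genes, which neurons switch on with activity, 15 rose with KCl in the inputs (median log2 fold change 2.77). In the DHPG inputs 2 of them, Egr3 (2.20) and Arc (1.30), were higher than in resting TurboID-PSD95 inputs and 12 were lower (median -1.25), among them Npas4 (-2.81).

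Coordinates are those of mm10, 1-based, from the first to the last coding base. H3f3b (ENSMUSG00000016559, chr11:116023407-116024009, minus strand) and H3f3a (ENSMUSG00000060743, chr1:180803077-180811926, minus strand) each have 3 coding exons and a CDS of 411 nt. Their coding sequences differed at 95 bases (76.9% identity), 81 of them at the third codon position, and none of the 83 codons that differed gave another amino acid. The H2A.Z genes H2afz (ENSMUSG00000037894, chr3:137864694-137866447, plus strand) and H2afv (ENSMUSG00000041126, chr11:6428371-6444339, minus strand) each have 5 coding exons and a CDS of 387 nt. They differed at 81 bases (79.1% identity), and 3 of the 74 codons that differed gave another amino acid. The first coding exon of the H3.3 genes (H3f3b at chr11:116023882-116024009 and H3f3a at chr1:180811799-180811926) and coding exon 3 of the H2A.Z genes (H2afz at chr3:137865520-137865633 and H2afv at chr11:6433724-6433837) are shown because footprints can be given to one copy or the other only through such differences. The sequences are the mm10 reference on the coding strand, and capitals mark the bases that differ between the paired genes.
H3f3b exon 1: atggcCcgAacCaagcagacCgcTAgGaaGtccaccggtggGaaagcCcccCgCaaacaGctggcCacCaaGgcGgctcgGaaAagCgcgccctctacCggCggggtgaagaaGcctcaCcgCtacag
H3f3a exon 1: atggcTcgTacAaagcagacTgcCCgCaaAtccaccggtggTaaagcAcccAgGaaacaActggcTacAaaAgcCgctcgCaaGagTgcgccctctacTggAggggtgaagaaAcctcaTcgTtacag
H2afz exon 3: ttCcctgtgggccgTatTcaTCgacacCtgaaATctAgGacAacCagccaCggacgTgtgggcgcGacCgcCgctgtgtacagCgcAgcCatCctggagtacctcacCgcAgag
H2afv exon 3: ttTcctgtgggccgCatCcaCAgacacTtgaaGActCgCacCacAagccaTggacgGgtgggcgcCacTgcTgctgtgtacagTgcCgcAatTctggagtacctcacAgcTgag
The H3.3 exons differed at 25 of 128 bases and the H2A.Z exons at 23 of 114 bases. Over the whole aligned CDS the longest identical run was 23 nt in the H3.3 pair and 14 nt in the H2A.Z pair. A footprint of 28 nt in these CDSs thus spans a difference from the paired gene.

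H2afx (ENSMUSG00000049932, chr9:44334762-44335193, plus strand) has 1 coding exon of 432 nt, and H1f0 (ENSMUSG00000096210, chr15:79028722-79029306, plus strand) has 1 of 585 nt. H2afy (ENSMUSG00000015937, chr13:56074227-56128448, minus strand) has 8 coding exons and a CDS of 1119 nt, so it was the only gene of the 7 with a CDS over 600 nt. Copies elsewhere in the genome limit some of the counts. For every possible footprint of 28 nt, the 21 chromosomes scanned held an identical sequence outside the gene for 100% of H3f3a (up to 30 copies) and of H2afz (up to 4 copies), 70.3% of H3f3b (up to 3 copies) and 29.6% of H2afx (up to 21 copies). For H2afv, H2afy and H1f0 the share was 0%. How reads with several positions were counted is not stated, so the levels of H3f3a and H2afz in particular are uncertain. The authors' use of strand is not stated either, and genes on the opposite strand overlap H2afy (265 nt in exons 6 and 7), H2afx (141 nt) and H3f3a (129 nt).

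In the 19 inputs, H3f3b had the highest level per kilobase of CDS, H2afx came next and H3f3a was lowest in every library. In CPM per kilobase of CDS, the lowest, median and highest input values were 328, 457 and 1109 for H3f3b and 166, 315 and 481 for H2afx. They were 57.4, 81.0 and 159 for H2afz, 32.4, 69.5 and 107 for H1f0, 18.2, 57.1 and 71.5 for H2afy and 14.1, 45.9 and 100.4 for H2afv. H3f3a had only 4.82, 8.48 and 15.1. The ranges of H2afx and H2afz did not overlap, and those of the other neighbours in this order did, if only between 14.1 and 15.1 for H2afv and H3f3a. H2afz took rank 3 or 4 in each input, whereas H1f0, H2afy and H2afv took any rank from 3 to 6. By counted footprints the H3.3 copies differed most, with 37116 CDS footprints of H3f3b and 708 of H3f3a over all 38 libraries. The H2A.Z copies differed less, with 5856 of H2afz and 2571 of H2afv. Possible footprints of 28 nt with copies elsewhere in the genome made up 100% of H3f3a and H2afz, 70.3% of H3f3b and 0% of H2afv. Loss of such reads and a difference between the paired genes cannot be told apart in these totals.

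**Figure D1:**
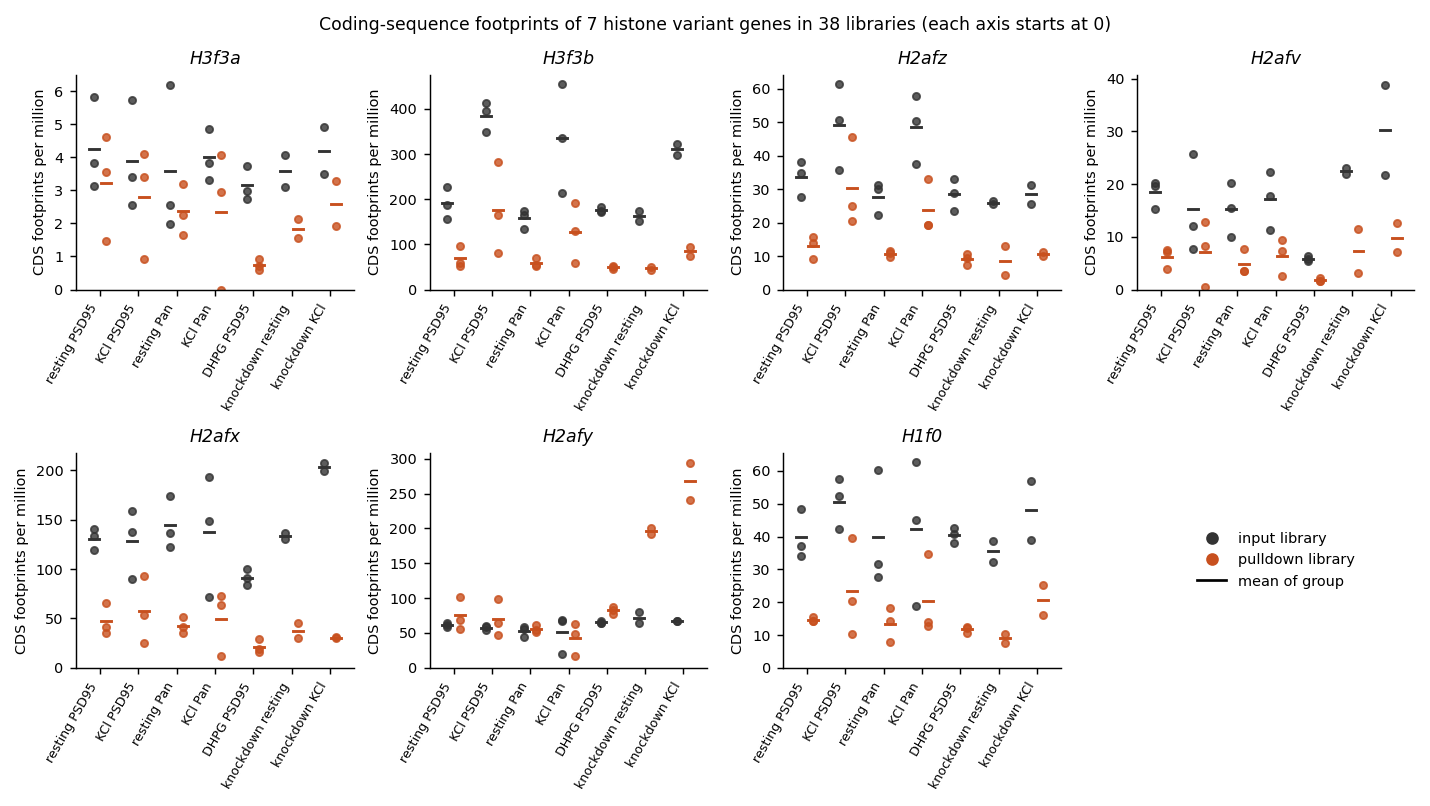
Level of each histone variant gene in CPM (vertical axes, each from 0) in the 38 libraries by condition, with inputs in black, pulldowns in orange and a line at each group mean. Pulldown points of 6 genes lay mostly under their inputs, while those of H2afy lay near its inputs and reached 192 to 295 in knockdown neurons.

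To ask whether ribosomes near the bait carried these mRNAs as often as those of the whole lysate, pulldowns were set against their inputs. The edgeR tests compared group means without pairing, and the replicate number as a block was run as an alternative. In resting TurboID-PSD95 neurons H3f3b had 157, 228 and 188 CPM in the inputs and 51.0, 97.3 and 58.1 in the pulldowns, with no overlap. H2afx had 119, 141 and 133 against 41.5, 65.1 and 35.6. These groups did not overlap either, nor did those of H1f0, which had 37.2, 34.0 and 48.3 against 14.3, 15.5 and 14.2. H2afy had 63.9, 61.1 and 58.2 against 101, 68.1 and 56.1, so that its groups overlapped. On the log2 scale the pulldown was lower for H3f3b (-1.43, SE 0.365, edgeR FDR 0.0097), and also for H2afz (-1.31, FDR 0.00494), H2afx (-1.41, FDR 0.0285), H1f0 (-1.40, FDR 0.0200) and H2afv (-1.49, FDR 0.0467). H2afy (0.33, FDR 0.492) and H3f3a (-0.33, FDR 0.774) did not pass. With 5 of the 7 lower, 13.5% of all 13019 genes tested were called lower in this comparison.

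In resting Pan-TurboID neurons 4 of the 7 were lower in the pulldown, where 5.04% of all genes were. These were H3f3b (-1.37, edgeR FDR 0.0288), H2afz (-1.32, FDR 0.0188), H2afx (-1.72, FDR 0.0298) and H1f0 (-1.49, FDR 0.0324), while H2afv had -1.61 (FDR 0.0578) and H2afy 0.13 (FDR 0.836). In depolarized Pan-TurboID neurons 3 were lower, H3f3b (-1.36, FDR 0.029), H2afz (-0.99, FDR 0.0356) and H2afx (-1.43, with an FDR just under the threshold), against 3.64% of all genes. In depolarized TurboID-PSD95 neurons only H3f3b was (-1.09, SE 0.358, edgeR FDR 0.0463), against 4.39% of all genes. Its replicates spread widely, with 80.2, 283 and 164 CPM of H3f3b in those pulldowns, and 3 of the 7 passed with the replicate number as a block.

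Pair by pair, H3f3b, H2afz, H2afx and H1f0 were lower in the pulldown in all 19 pairs, H2afv in 18 and H3f3a in 16. Of 9343 genes with at least 10 footprints in each input, 2009 (21.5%) were lower in all 19, and 6 of the 7 genes met this minimum, all but H3f3a. The median log2 ratio over the 19 pairs was -1.76 for H2afx, -1.70 for H1f0, -1.65 for H3f3b, -1.60 for H2afv, -1.33 for H2afz and -0.82 for H3f3a. H2afy had a median of 0.28, from -0.48 to 2.12, and was lower in 6 pairs. One H3f3a value rests on a pulldown with no footprint (depolarized Pan-TurboID, replicate 1), where a count of 0 allows up to 0.942 CPM, against 3.32 in its input. Such a limit covers counting error only.

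**Figure D2:**
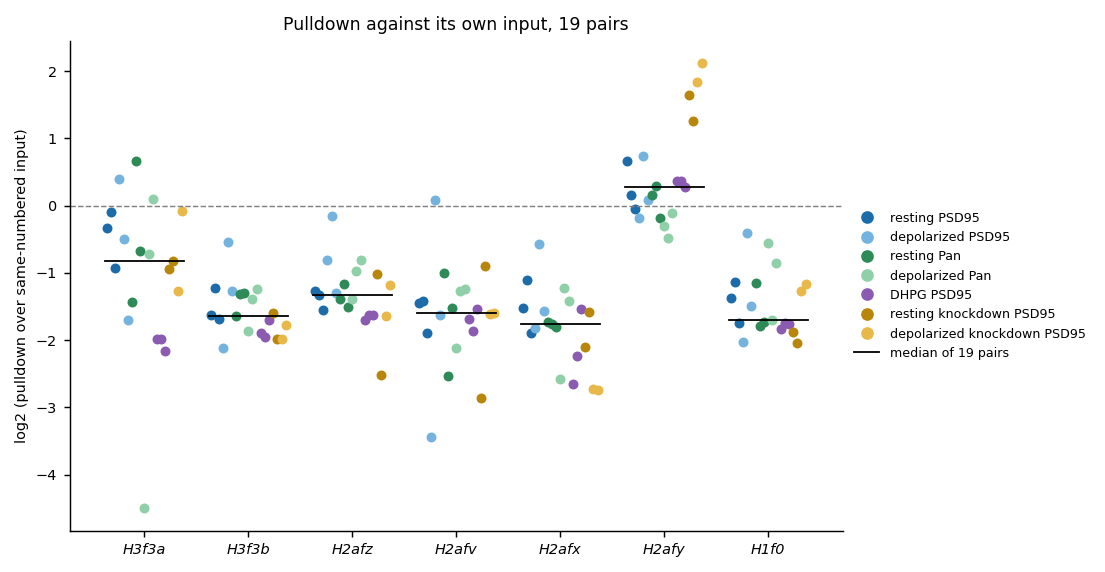
Log2 ratio of pulldown over same-numbered input (vertical axis, CPM) for the 7 genes in the 19 pairs, with points by condition and a line at the median of the 19 pairs. Points of H3f3b, H2afz, H2afx and H1f0 all lay below 0, and the 4 knockdown pairs of H2afy lay highest for that gene, from 1.26 to 2.12.

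In the DHPG experiment replicates lay closer together, and all 7 genes were called. The chi-square per degree of freedom between replicates, a measure of spread beyond counting error, was 1.48 to 1.90 in its inputs and 2.83 to 8.87 in its pulldowns. In the KCl experiment it was 8.61 to 27.8 in inputs and 9.925 to 47.5 in pulldowns. The FDRs here are thus not comparable with those of the KCl experiment, and the labels do not name separate preparations. After DHPG H3f3b had 183, 174 and 171 CPM in the inputs and 49.5, 45.0 and 52.8 in the pulldowns. Its log2 fold change was -1.63 (SE 0.077, edgeR FDR 1.65e-12), and H3f3a, H2afz, H2afv, H2afx and H1f0 were lower (-1.88 to -1.40), 6 genes in all where 39.3% of the 12273 genes tested were lower. H2afx had 99.9, 90.5 and 83.5 in the inputs and 15.9, 19.1 and 28.8 in the pulldowns. H2afy had 67.6, 64.7 and 64.3 in the inputs and 87.1, 83.7 and 77.9 in the pulldowns, which did not overlap. It was higher by 0.55 (SE 0.080, FDR 5.23e-06), where 40.5% of all genes were higher.

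CDS length moved with these differences. Among the 1940 genes with a CDS of at most 600 nt that were tested in the KCl experiment, the median log2 fold change was -0.99 in resting TurboID-PSD95 pulldowns, against -0.05 for all genes, and 39.3% were called lower. In the DHPG experiment the median of such genes was -1.41 and 87.2% were called lower. Once the trend of each library with CDS length was taken out, none of the 5 calls in resting TurboID-PSD95 neurons, none of the 3 in depolarized Pan-TurboID neurons and 1 of the 4 in resting Pan-TurboID neurons (H2afx) passed, and H3f3b in resting TurboID-PSD95 neurons had -0.53. The call of H3f3b in depolarized TurboID-PSD95 neurons did not pass then either. After DHPG H3f3b (-0.40), H2afx (-0.68), H1f0 (-0.63) and H2afy (0.67) still passed. Without replicate 3, no gene of the 7 passed in any comparison of the KCl experiment. Without replicate 2, 2 of the 7 passed in resting TurboID-PSD95 neurons and 3 in depolarized ones, and none in Pan-TurboID neurons.

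No difference between the baits was detected for these genes. The ratio of TurboID-PSD95 enrichment to Pan-TurboID enrichment lay between 0.04 (H1f0) and 0.39 (H2afy, SE 0.336) on the log2 scale, with an edgeR FDR of 1 for each of the 7. None of the 7 was under an unadjusted p of 0.05, DESeq2 called none, and 0.00768% of all genes were called. The change of TurboID-PSD95 enrichment with KCl was 0.67 for H2afz (SE 0.402), the largest of the 7, and -0.10 for H3f3a, the lowest. Again edgeR and DESeq2 called none of the 7, none was under an unadjusted p of 0.05, and 0% of all genes were called by edgeR.

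H3f3b for H3.3 and H2afz for H2A.Z rose with KCl, which here includes the silencing given before it. In TurboID-PSD95 neurons H3f3b had 157, 228 and 188 CPM in the resting inputs (191 ± 35.7, SD, n = 3) and 348, 413 and 395 in the depolarized inputs (385 ± 33.4, SD, n = 3). In Pan-TurboID neurons it had 166, 174 and 135 at rest (158 ± 20.8, SD, n = 3) and 213, 336 and 456 after KCl (335 ± 121, SD, n = 3). The groups were apart within each bait, although the lowest depolarized input lay under the highest resting input of the other bait. Over both baits the log2 fold change was 1.07 (SE 0.253, 2.10-fold, edgeR FDR 0.00508).

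H2afz had 38.2, 34.9 and 27.8 CPM in resting and 35.8, 50.8 and 61.5 in depolarized TurboID-PSD95 inputs, which overlapped. In Pan-TurboID inputs it had 30.0, 22.2 and 31.1 at rest and 50.3, 37.5 and 57.8 after KCl, which did not. Over both baits it rose by 0.71 (SE 0.197, 1.64-fold, edgeR FDR 0.0139). With these 2 of the 7 higher, 6.32% of the 13019 genes tested were called higher. Of 8 neuron markers 2 were lower with KCl in the inputs, and none of the 8 genes of dividing cells was called. The values of H2afv (-0.01), H2afx (-0.03), H2afy (-0.02), H3f3a (0.05) and H1f0 (0.26, FDR 0.604) did not pass.

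The same pair of genes was called in the TurboID-PSD95 pulldowns, where 3.31% of all genes were higher. H2afz had 15.8, 13.8 and 9.28 CPM at rest and 20.4, 45.7 and 24.9 after KCl, with no overlap (log2 fold change 1.23, SE 0.294, edgeR FDR 0.0113). H3f3b had 51.0, 97.3 and 58.1 at rest and 80.2, 283 and 164 after KCl, which overlapped (1.35, SE 0.365, FDR 0.0266). In the Pan-TurboID pulldowns H2afz had 11.4, 9.81 and 10.9 at rest and 19.2, 19.2 and 33.0 after KCl (1.19, SE 0.289, FDR 0.0154). There H2afz was the only gene of the 7 that was called, where 1.87% of all genes were higher, and H3f3b had 1.13 (FDR 0.0717). With the replicate number as a block 2 of the 7 passed there.

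Short CDSs moved the same way, with a median of 0.37 in the inputs, 0.62 in the TurboID-PSD95 pulldowns and 0.43 in the Pan-TurboID pulldowns among genes of at most 600 nt. With the length trend removed, H3f3b still passed in the inputs (0.74) and the TurboID-PSD95 pulldowns (0.81), while H2afz did not (0.37 and 0.70). In the Pan-TurboID pulldowns H2afz then had 0.87, and 2 of the 7 passed. Neither gene passed without replicate 3, and neither passed in the pulldowns without replicate 2.

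With siRNA against eIF4G2, H3f3b rose with KCl from 151 and 173 CPM to 299 and 322 in the inputs (0.95, SE 0.125, edgeR FDR 3.56e-06). In the pulldowns it rose from 49.9 and 43.5 to 75.2 and 94.4 (0.84, SE 0.156, FDR 0.000246). Both sets of groups were apart. H2afz had 0.16 (SE 0.315, FDR 0.787) in these inputs, from 26.4 and 25.6 to 31.3 and 25.7, and 0.18 in the pulldowns, and whether its response differed from that without siRNA was not tested.

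Other genes were called in the knockdown neurons only in 1 fraction each. H2afx, the DNA damage variant, rose in the inputs from 130 and 136 to 199 and 208 CPM (0.63, SE 0.146, edgeR FDR 0.00285), so that 2 of the 7 were higher there, where 8.96% of all 12239 genes tested were. In the pulldowns H1f0 rose from 10.4 and 7.68 to 16.03 and 25.37 (1.14, SE 0.334, FDR 0.0147) and H2afy by 0.45 (SE 0.131, FDR 0.015), which made 3 of the 7, where 10.2% of all genes were higher. With the length trend removed H2afx in the inputs had 0.29 and did not pass. This call and the pulldown calls of H1f0 and H2afy also depended on which libraries of the resting and depolarized groups were kept. Over all alternatives, leaving out libraries among them, H2afx in the inputs had 0.29 to 0.67. In the pulldowns H1f0 had 0.79 to 1.43 and H2afy 0.30 to 0.57. Markers of other cells moved in the same comparisons. In the inputs 3 of 7 astrocyte markers were higher after KCl (summed level 847 to 881 against 615 to 636 CPM at rest), as was 1 of 8 genes of dividing cells (469 against 368 to 388), while 1 of 8 neuron markers was higher and 3 were lower (6961 to 7105 against 8828 to 9051). In the pulldowns 4 astrocyte markers were higher and 1 lower (738 to 922 against 497 to 593), 3 genes of dividing cells were higher (777 to 822 against 537 to 545) and 1 neuron marker was lower. Their part in these differences was not tested.

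**Figure D3:**
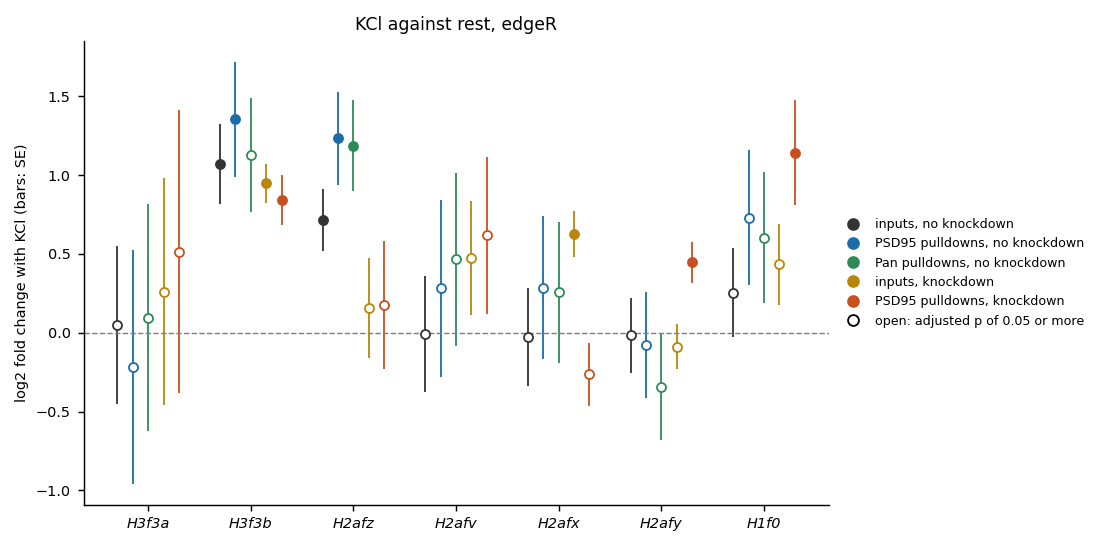
Log2 fold change with KCl (depolarized over resting, vertical axis) of the 7 genes in inputs, TurboID-PSD95 pulldowns, Pan-TurboID pulldowns and the inputs and pulldowns of knockdown neurons, with bars of 1 standard error and filled points for genes called by edgeR. H3f3b was called in 4 of the 5 comparisons and had 1.13 in the other, and H2afz was called in the 3 without siRNA.

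The promoters of the H2A.Z genes are shown because, of the pair, H2afz was called with KCl and H2afv was not, although the shift between the copies, given next, did not pass. Each is the 250 bases before the RefSeq transcription start (GRCm38.p6, the assembly of mm10), on the strand of the gene, with CCAAT on either strand in capitals (ATTGG where it lies on the other strand).
H2afz promoter, chr3:137864237-137864486, plus strand: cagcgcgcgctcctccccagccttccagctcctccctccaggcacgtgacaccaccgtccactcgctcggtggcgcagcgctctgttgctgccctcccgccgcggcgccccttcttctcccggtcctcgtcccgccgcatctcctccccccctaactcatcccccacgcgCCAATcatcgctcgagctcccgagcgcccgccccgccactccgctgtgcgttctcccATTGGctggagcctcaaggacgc
H2afv promoter, chr11:6444444-6444693, minus strand: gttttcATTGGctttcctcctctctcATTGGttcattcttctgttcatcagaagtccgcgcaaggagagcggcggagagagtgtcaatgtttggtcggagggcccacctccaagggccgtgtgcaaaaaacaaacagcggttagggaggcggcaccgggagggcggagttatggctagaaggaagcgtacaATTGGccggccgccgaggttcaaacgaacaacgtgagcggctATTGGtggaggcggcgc
CCAAT occurred 2 times in the H2afz promoter and 4 times in that of H2afv, and 33.8% of 32851 RefSeq promoters of this length held it at least once. Both strands were searched for CCAAT and for TGACGTCA, TGACG and TATAAA, where TGACG lies within TGACGTCA. RefSeq promoters were matched for 6 of the 7 genes, all but H2afx. The H3f3b promoter held CCAAT 4 times, TGACG 2 times and TATAAA 1 time, but most of its window lies within the 5′ UTR that was counted. The H3f3a promoter held CCAAT 1 time and those of H2afy and H1f0 none of the 4 motifs, and TGACGTCA, present in 1.5% of all promoters, was in none of the 6.

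The balance between the copies was followed as the log2 ratio of footprints per kilobase. This ratio keeps the uncertainty from reads with copies elsewhere in the genome, whose share differs between the paired genes. H3f3b exceeded H3f3a by 3.45 to 7.28 in the 37 libraries with footprints of both genes. Replicate 1 of the depolarized Pan-TurboID pulldowns had no H3f3a footprint, so its value of 8.54 rests on the 0.5 counts added. Over the KCl experiment the ratio was 5.54 ± 0.666 in resting and 6.47 ± 0.470 in depolarized inputs (SD, n = 6 each), a difference of 0.93 with an exact two-sided permutation p of 0.0216 and 0.0714 after Benjamini-Hochberg adjustment over 6 such tests. H2afz over H2afv was 0.88 ± 0.478 in resting and 1.68 ± 0.498 in depolarized inputs (SD, n = 6 each), a difference of 0.79 (exact permutation p = 0.0238, adjusted 0.0714). So neither shift passed after adjustment. These tests treated the 6 inputs of a state as independent, although samples of the same replicate number were handled together. Neither shift passed with pairing either, as given with the alternatives below. In the knockdown inputs the H2A.Z ratio was 0.20 and 0.22 at rest and -0.31 and 0.24 after KCl. Over all 38 libraries it lay between -1.39 and 4.82, and it was below 0 in 3 of them, all from knockdown neurons. Between TurboID-PSD95 pulldowns and their inputs the differences were -0.88 for the H3.3 genes and 0.56 for the H2A.Z genes, and between Pan-TurboID pulldowns and inputs -0.37 and 0.41, with exact permutation p-values of 0.0938 to 0.594. The value of -0.37 holds the library without an H3f3a footprint and was -1.15 without replicate 1 of each Pan-TurboID group and 0.12 without replicate 2. That of 0.56 holds the replicate 1 pulldown of depolarized TurboID-PSD95 neurons, which had 1 H2afv footprint (0.486 CPM) and a log2 ratio of 4.82, and was 0.13 without replicate 1.

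**Figure D4:**
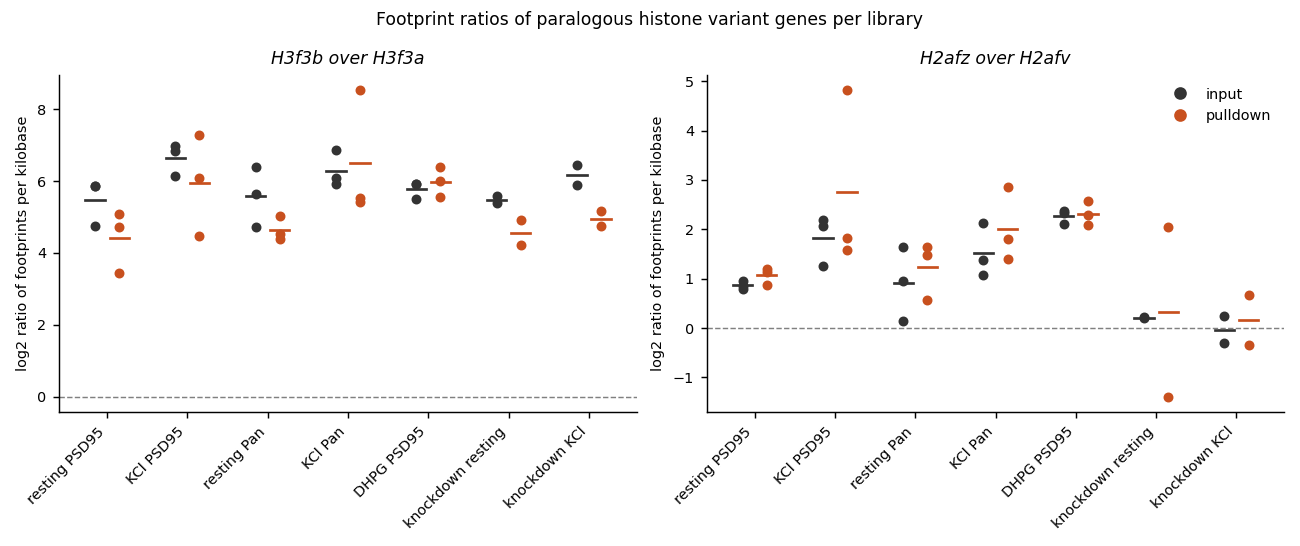
Log2 ratio of footprints per kilobase (vertical axes) of H3f3b over H3f3a and of H2afz over H2afv in each library by condition, with inputs in black, pulldowns in orange and a line at the group mean. The H3.3 ratio stayed above 3.4, with its highest point, 8.54, in the library without an H3f3a footprint, and the H2A.Z ratio was 2.10 to 2.37 in the DHPG inputs against 0.79 to 0.96 in resting TurboID-PSD95 inputs.

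In the DHPG experiment H2afv was lower than in resting neurons of the KCl experiment. Its inputs had 5.45, 5.74 and 6.31 CPM after DHPG and 19.7, 20.2 and 15.3 in resting TurboID-PSD95 inputs, with no overlap. Its log2 fold change was -1.56 (SE 0.273, 2.95-fold, edgeR FDR 0.000426), the only call among the 7, where 16.5% of 12803 genes were lower, and the other 6 lay between -0.42 and 0.20. In the pulldowns H2afv was lower (-1.60, SE 0.310, FDR 0.000512), with 1.66, 1.55 and 2.16 after DHPG and 7.13, 7.52 and 3.91 at rest. H2afx (-0.94, FDR 0.00441) and H3f3a (-1.96, FDR 0.00382) were lower as well, 3 of the 7 where 26% of all genes were. The value of H3f3a rests on few footprints, 6, 10 and 8 after DHPG (0.713, 0.914 and 0.595 CPM). At rest it had 33, 17 and 3 (4.61, 3.55 and 1.46 CPM). Marker lists of other cells moved with this comparison. Of 7 astrocyte markers 6 were lower in the DHPG inputs, with a summed level of 108 to 113 against 432 to 944 CPM at rest. Of 6 tested markers of the oligodendrocyte lineage 4 were lower (59.1 to 65.9 against 249 to 545) and of 8 genes of dividing cells 6 (87.8 to 93.8 against 172 to 350), while 3 of 8 neuron markers were higher and 1 was lower. In the pulldowns 7 astrocyte markers, 4 of the oligodendrocyte lineage, 7 genes of dividing cells and 5 neuron markers were lower, and 2 neuron markers were higher. Their part in the difference was not tested, and fewer cells of a type and less RNA per cell cannot be told apart in bulk samples.

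In knockdown neurons the pulldown was again lower than the input for H3f3b, H2afz, H2afv, H2afx and H1f0. At rest these were 5 of the 7, from -1.82 (H1f0, SE 0.300, edgeR FDR 2.07e-05) to -1.36 (H2afz, FDR 0.00238), where 23.4% of 12239 genes were lower. The H2A.Z genes differed between the replicates, with 13.02 and 4.27 CPM of H2afz and 3.09 and 11.5 of H2afv in these pulldowns. H2afz had -2.50 without replicate 1 of the pulldowns and -0.89 without replicate 2. H2afv had -0.87 (edgeR FDR 0.116) and -2.74, so that its call was lost without replicate 1. After KCl the same 5 were lower, where 24.8% of all genes were. There the calls of H2afz (-1.18) and H2afv (-1.02) were lost without replicate 1 of the inputs, that of H2afv (-1.18) also without replicate 2 of the pulldowns, and that of H1f0 without replicate 2 of the inputs (-0.82) or replicate 1 of the pulldowns (-0.81). H2afx had the largest difference, with 199 and 208 CPM in the depolarized inputs and 29.8 and 31.0 in the pulldowns (-2.64, SE 0.180, FDR 9.47e-12). With the length trend removed 4 of the 7 passed at rest and 3 after KCl, in both directions together. H2afx after KCl still had -1.50. The share of all genes called with the trend removed is not given here. Genes with a CDS of at most 600 nt had medians of -1.08 at rest and -1.27 after KCl.

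H2afy moved the other way. It had 64.2 and 80.0 CPM in the resting knockdown inputs and 201 and 192 in the pulldowns. After KCl it had 67.1 and 67.6 in the inputs and 241 and 295 in the pulldowns. The pulldown was higher by 1.56 at rest (SE 0.133, 2.94-fold, edgeR FDR 7.12e-10) and by 2.09 after KCl (SE 0.143, 4.26-fold, FDR 1.05e-11). It was 1 of the 7 in each case, where 22.1% and 24% of all genes were higher. All 4 knockdown pulldowns lay above each of the 15 pulldowns without siRNA, of which the highest had 101.

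Against the neurons of the KCl experiment, H2afy was higher in knockdown pulldowns by 1.43 at rest (SE 0.234, 2.70-fold, edgeR FDR 0.000252) and by 2.00 after KCl (SE 0.235, 4.00-fold, FDR 8.12e-06). At rest the groups were 201 and 192 against 101, 68.1 and 56.1 CPM, and after KCl 241 and 295 against 47.6, 98.1 and 63.7. It was the only gene of the 7 higher in either, where 4.18% and 7.96% of 13197 genes were. After KCl H2afz was lower, with 9.92 and 11.3 against 20.4, 45.7 and 24.9 (-1.47, SE 0.401, FDR 0.0139), where 11% of all genes were lower, and H3f3b had -0.98 (FDR 0.0516). The call of H2afz was lost without replicate 2 of the depolarized TurboID-PSD95 pulldowns, without either knockdown pulldown and with the length trend removed (-0.79). Among genes with a CDS of at most 600 nt the median was -0.76 in this comparison. The calls of H2afy passed in each alternative run for them.

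In the inputs no gene of the 7 was called between knockdown neurons and those of the KCl experiment. At rest the values lay between -0.35 (H2afz) and 0.31 (H2afv), with none under an unadjusted p of 0.05 and none called by DESeq2, where edgeR called 3.9% of all genes. After KCl edgeR and DESeq2 called none, 2 of the 7 (H2afx with 0.69 and H2afz with -0.76) were under an unadjusted p of 0.05, and 5.32% of all genes were called. Marker lists moved with the pulldown comparison. After KCl 5 of 8 neuron markers were lower in the knockdown pulldowns (summed level 4906 to 4930 against 5728 to 6155) and 6 of 8 genes of dividing cells were higher (777 to 822 against 183 to 345). At rest 5 neuron markers were lower and 1 gene of dividing cells was higher. The summed level of 7 microglia markers was 6.40 to 12.8 against 1.04 to 2.93 at rest and 9.92 to 14.1 against 0 to 2.73 after KCl, with 1 of the 3 tested higher in each. Of 7 astrocyte markers 1 was higher after KCl (738 to 922 against 464 to 714) and none at rest, and of 6 markers of the oligodendrocyte lineage 1 was lower in each. Their part in the H2afy difference was not tested.

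The exons of H2afy show where along the CDS its pulldown footprints lay. In every condition the first exon (chr13:56128277-56128448) was lower in the pulldown on average, from -1.73 to -0.71 on the log2 scale. Exon 7 (chr13:56083120-56083294) was higher, from 0.92 to 2.88, exon 8 (chr13:56074227-56074392) from 0.68 to 3.16, and exon 6 from 0.34 to 3.05. Exons 2 to 5 varied between conditions, and exon 2 was lower on average in all but resting Pan-TurboID neurons (1.55). In resting TurboID-PSD95 neurons the first exon held on average 34.3% of the H2afy footprints in inputs and 13.7% in pulldowns, while the last 2 exons held 33.0% and 52.9%. In depolarized knockdown neurons the first exon held 36.7% and 4.30%, and the last 2 held 35.1% and 71.2%.

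Such a shift was usual among genes with many coding exons. Among 3533 genes with at least 8 coding exons and, summed over the inputs, 30 footprints in each of the regions compared, the median shift of the last 2 exons against the first was 2.12 in resting TurboID-PSD95 neurons, where H2afy had 2.00 and 54.0% of genes had as much or more. In knockdown neurons H2afy had 3.51 at rest, against a median of 2.03, and 4.13 after KCl, against 2.52. Of the genes compared, 12.1% and 12.7% had as much or more. After DHPG H2afy had 2.87, against a median of 2.50, and 35.5% of genes had as much or more. Exons 6 and 7, which the gene on the opposite strand overlaps, were among those with the higher pulldown values, and without strand information their reads cannot be divided.

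**Figure D5:**
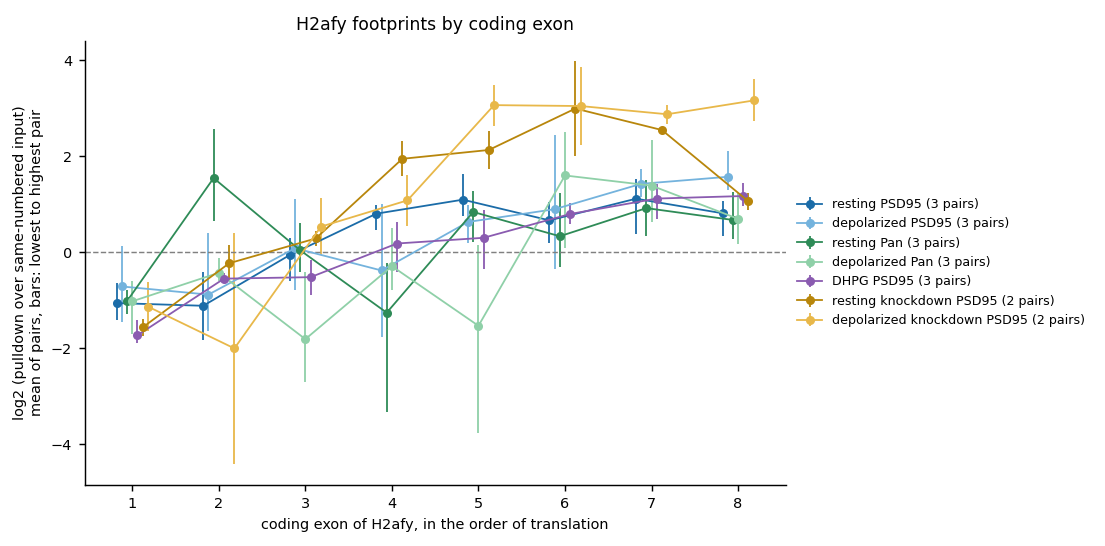
Mean log2 ratio of pulldown over same-numbered input (vertical axis) for coding exons 1 to 8 of H2afy in order of translation (horizontal axis), 1 line per condition, with bars from the lowest to the highest pair. The first exon lay between -1.73 and -0.71 and exon 7 between 0.92 and 2.88, and both knockdown conditions were highest over exons 5 to 7.

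H2afy makes 2 coding transcripts that use different versions of exon 5, which encode alternative parts of the non-histone domain. Exon 5 of the transcript used here (chr13:56089758-56089857, 100 nt) held 1075 footprints over the 38 libraries, and the exon of the other transcript (chr13:56088252-56088342, 91 nt) held 333. Per nucleotide, the group means of the first version's share lay between 61.1% and 92.7%. With 0 to 106 footprints of the first version per library, these shares were not compared further.

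Footprints in the 5′ UTR were uneven among the 7 genes. Over all libraries the ratio of 5′ UTR to CDS footprints was 3.25 for H3f3a, 1.62 for H2afz and 1.14 for H1f0, against 0.26 for H2afy and 0.18 to 0.19 for H3f3b, H2afv and H2afx. The median over 12020 genes with at least 500 CDS footprints was 0.154, and 6.30% of them lay above 1. Footprints were counted at their 5′ ends with no offset, so ribosomes on the first codons are included there. Of the genes above 1, H3f3a and H2afz had copies elsewhere in the genome for 100% of CDS footprints of 28 nt, and H1f0 for 0%. Loss of such reads from the CDS would raise the ratio, and its part was not tested. Upstream ATG triplets were found 7 times in the 5′ UTR of H3f3b, 1 time in those of H2afy and H2afz and not in the other 4, and 53.7% of 11726 genes had at least 1.

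In pulldowns the 5′ UTR footprints were lower than in the same-numbered inputs in all 19 pairs for H3f3b (median -1.57), H2afz (-2.0), H2afx (-1.93), H1f0 (-1.76) and H2afy, and in 18 of 19 for H3f3a and H2afv. For H2afy the median was -1.30, from -2.42 to -0.28, where its CDS had 0.28. Lower 5′ UTR footprints in the pulldown were usual: of 5268 genes with at least 10 of them in each input, 82.4% were lower in all 19 pairs, with a median of -1.60 over the genes. Of the 7 genes 6 met this minimum, all but H2afv.

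Related lists, chosen with earlier results of these data known, are given by their counts. Of 66 replication-dependent histone genes tested, 46 were lower in the resting TurboID-PSD95 pulldowns (median -1.50, where 13.5% of all genes were lower) and 9 in the depolarized ones (4.39%). In Pan-TurboID neurons 38 were lower at rest (5.04%) and 14 after KCl (3.64%). After DHPG 66 were lower (39.3%), and in knockdown neurons 64 at rest (23.4%) and 63 after KCl (24.8%). None was higher in any of these. In DHPG inputs 35 were lower than in resting TurboID-PSD95 inputs and 2 higher (median -0.66, where 16.5% of all genes were lower), among them Hist1h1b (-1.81, edgeR FDR 2.87e-05), and in DHPG pulldowns 45 were lower than at rest (median -1.01, where 26% were). With KCl 2 of them rose in the inputs, Hist2h4 (0.74, edgeR FDR 0.0385) and Hist2h2bb (0.62, FDR 0.0424), where 6.32% of all genes were higher. In the knockdown inputs 55 rose (median 0.91), where 8.96% of all genes were. Genes with a CDS of at most 600 nt had a median of 0.39 there. Of such genes, 39.3% and 13.1% were lower in resting and depolarized TurboID-PSD95 pulldowns than in inputs, and 18.8% and 12.1% with Pan-TurboID. After DHPG 87.2% were lower, and in knockdown neurons 55.1% at rest and 60.4% after KCl. The part of CDS length in these histone counts was not tested. Genomic copies of these histone genes were not searched, so the calls may share reads. Of 6 other variant genes tested, H2afy2, which encodes macroH2A2, was called in the same direction as H2afy in 5 comparisons. Its pulldown was higher by 1.40 at rest (SE 0.122, edgeR FDR 8.87e-10) and 1.80 after KCl (SE 0.130, FDR 2.73e-11) in knockdown neurons and by 0.95 after DHPG. Against the KCl experiment the knockdown pulldowns were higher by 1.19 (FDR 0.00816) at rest and 1.33 (FDR 0.00245) after KCl. H2afy2 was also called higher where H2afy was not, in the depolarized TurboID-PSD95 pulldown over input (1.09, edgeR FDR 0.0248, where H2afy had 0.32) and after DHPG against rest in inputs (0.46, where H2afy had 0.20) and pulldowns (0.73, where H2afy had 0.36). With KCl in knockdown pulldowns H2afy was called and H2afy2 was not. The difference between the genes was not tested. The linker variant H1fx (-1.28, FDR 0.0143) and Hist3h2a (-1.51, FDR 0.0215) were lower in resting TurboID-PSD95 pulldowns, and Hist3h2a and Hist3h2ba are counted in both lists.

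Of 36 genes for histone chaperones and exchange factors, 8 were higher and 8 lower in the resting TurboID-PSD95 pulldowns, where 11.5% of all genes were higher and 13.5% lower. After KCl 10 were higher and 2 lower, where 8.21% and 4.39% of all genes were. The median of the list was -0.13 at rest and 0.09 after KCl, against -0.05 and -0.015 for all genes. The part of CDS length in the values of this list was not tested. The ATPase Atrx, which works with DAXX in placing H3.3, was higher by 0.87 (SE 0.188, edgeR FDR 0.00456) at rest and 1.24 after KCl, and Hira, which places H3.3 in active genes, by 1.499 (SE 0.312, FDR 0.00703) after KCl. Ubn1, a subunit of the HIRA complex, was higher by 2.35 after DHPG, where 15 of the 35 genes tested were higher and 18 lower (40.5% and 39.3% of all genes), and by 2.72 in resting knockdown neurons, where 11 of 36 were higher and 11 lower (22.1% and 23.4%). The chaperones Nap1l4 (-0.84, FDR 0.0109) at rest and Npm1 (-1.11, FDR 0.0207) after KCl were lower. In DHPG pulldowns against resting ones 8 of the 36 were lower, where 26% of all genes were. Another 9 were higher, and the share of all genes higher is not given here. The median of the list was -0.21, against -0.09 for all genes. Anp32e, which removes H2A.Z, was among the lower (-1.39) and Ubn1 among the higher (1.32). With KCl 2 of the 36 rose in the inputs, among them Npm1 (0.65, FDR 0.0345), where 6.32% of all genes did, and 5 fell, among them Atrx (-0.68, FDR 0.00076), where 9.03% did. Of 75 cytosolic ribosomal protein genes, another group of short CDSs, 55 were lower in the resting TurboID-PSD95 pulldowns, where 13.5% of all genes were, and of 8 HMG chromatin protein genes 3 were, among them Hmgb1 (-1.76, FDR 0.0116).

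Likeness was measured as Pearson's r of log2 CPM over the 14 group means, which share libraries' depth and the split into inputs and pulldowns, among 7630 genes. The nearest gene was the H2A gene Hist3h2a for H3f3b (r = 0.989), the linker histone gene Hist1h1b for H2afv (0.983) and H2afy2 for H2afy (0.933). RNA polymerase II subunit genes were nearest to H2afx (Polr2f, 0.986) and H1f0 (Polr2i, 0.979), the dynactin subunit gene Dctn3 to H2afz (0.981) and the decapping enzyme gene Dcp2 to H3f3a (0.931). Among the 7 genes H3f3b and H2afz were close to each other (0.956). H2afy was close to none of the other 6, with a highest r of -0.11 (H3f3a).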

How the data were processed

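According to their methods, the authors trimmed reads with Rfastp, aligned them to mm10 with Rsubread and counted them with plastid. Per the file headers, 5′ ends of footprints were counted without an offset in each exon segment. Each of the 38 libraries had 3 deposited tables, for CDS, 5′ UTR and 3′ UTR (114 tables), with no pooling of replicates. Counts were deposited as whole numbers for each segment. RPKM values were deposited beside them and equalled these counts scaled by length and library total (largest relative deviation 5.0e-09) and were not used further. Strand use and the treatment of reads with several positions are not given in the sources used here.

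Counts of each transcript were summed, 66664 of 67238 coding transcripts were matched to GENCODE M21 symbols, and the longest transcript of each of 22401 genes was kept. Levels (CPM) are CDS counts scaled to a total of 1000000 over these transcripts in each library, and log2 ratios of pairs added 0.5 counts. Tests used edgeR 4.0.16 in R 4.3.3 (quasi-likelihood F test, TMM, filterByExpr, Benjamini-Hochberg adjustment over all genes tested, FDR 0.05), in 20 comparisons. The KCl experiment shared 1 fit of 24 libraries. The DHPG and the knockdown experiment had fits of their own, and comparisons across experiments held the TurboID-PSD95 groups concerned. Standard errors are the fold change over the square root of F. The fit was tested on simulated counts with known changes. Paralog ratios were compared by exact two-sided permutation tests (scipy 1.17.1). Standard errors include the spread between samples, and the limit given for a count of 0 covers counting error only.

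The text names the 7 genes, Eif4g2, up to 2 genes a direction and list with the smallest p among those called, and the most similar gene of each member among genes with a mean log2 level of at least 4. The genes and lists were chosen with earlier results of these data known. Input and pulldown of one number come from one lysate, and per the study's methods resting and activated samples of one replicate were handled together, which pairs them. Deviations from group means correlated with a median of 0.13 between libraries of one number in the KCl experiment (-0.30 to 0.71) and of -0.11 between numbers, and with medians of -0.15 and 0.08 after DHPG. In the knockdown the medians were 0.00 and 0.00. With 2 libraries a group the deviations there mirror each other, so these medians are not independent and cannot show pairing. Alternatives were RLE scaling, no filter, the transcript with the most counts, the likelihood ratio test that the study names, DESeq2 1.42.0, removal of each library's trend with CDS length, the replicate block, the mean of both inputs as the reference, 5 added counts for paralog ratios and leaving out replicates.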

Additional observations from a re-analysis of the deposited data

How the results depend on the processing

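Of 49 called values of the 7 genes, all 49 kept their direction in every alternative run for them and 19 passed the FDR in each. RLE scaling, DESeq2 and the likelihood ratio test kept all 49 calls. Removing the CDS length trend lost 24 of them. Shares of all genes called are given for the main fit only, so the counts under alternatives have no such share beside them. Genes called then numbered 0 of the 7 for resting TurboID-PSD95 pulldowns over inputs, 0 for depolarized TurboID-PSD95, 1 for resting Pan-TurboID, 0 for depolarized Pan-TurboID, 4 for DHPG and 3 for depolarized knockdown neurons. For the KCl response they numbered 1 in inputs, 1 in TurboID-PSD95 pulldowns, 2 in Pan-TurboID pulldowns and 1 in knockdown inputs. For knockdown against none after KCl they numbered 1 in inputs and 1 in pulldowns. With no filter there were 0 for depolarized TurboID-PSD95 over input, 1 for KCl in TurboID-PSD95 pulldowns and 4 for knockdown against none in depolarized pulldowns. DESeq2 and the replicate block, which pairs input and pulldown, each called 3 for depolarized TurboID-PSD95 over input and 2 for KCl in Pan-TurboID pulldowns, where the likelihood ratio test also called 2. The block changed no other count by over 1.5 times. In it the paralog differences between depolarized and resting inputs, paired by bait and replicate number, were 0.93 and 0.79 with an adjusted exact permutation p of 0.188 each. Against the mean of both inputs, 2 genes were called for depolarized TurboID-PSD95. The causes were not tested.

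Leaving out replicates gave 0 to 5 genes of the 7 for resting TurboID-PSD95 pulldown over input, 0 to 3 for depolarized TurboID-PSD95, 0 to 5 for resting Pan-TurboID, 0 to 2 for depolarized Pan-TurboID, 7 to 7 for DHPG, 5 to 6 for resting and 4 to 5 for depolarized knockdown neurons. It gave 0 to 0 for TurboID-PSD95 over Pan-TurboID and for the change with KCl. For KCl it gave 0 to 2 in inputs and in both pulldowns, 1 to 2 in knockdown inputs and 1 to 3 in knockdown pulldowns. For DHPG against rest it gave 1 to 1 in inputs and 3 to 4 in pulldowns. For knockdown against none it gave 0 to 0 in both inputs, 1 to 1 in resting and 1 to 4 in depolarized pulldowns. The paralog difference of the H3.3 genes ranged from 0.55 to 1.40 in inputs with KCl, from -1.25 to -0.38 for TurboID-PSD95 pulldowns and from -1.15 to 0.12 for Pan-TurboID pulldowns, where it reversed to 0.12 without replicate 2. That of the H2A.Z genes ranged from 0.59 to 1.16, from 0.13 to 0.87 and from 0.20 to 0.53. In knockdown groups a lone library was taken to vary like the other groups. H3f3a had 0 to 76 footprints a library, the fewest of the 7 over all libraries.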
